A study of Mus musculus with 59 samples.

Results

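The genes described here are 10 genes of the inflammatory cytokine and NF-kB response, taken by name from the gene-level tables of normalized counts, which hold 51810 or 51812 genes each. All 10 were in every table. They are the cytokine genes Il1b, Tnf and Il6, the chemokine genes Ccl3, Ccl4 and Cxcl2, the genes of the NF-kB pathway's own inhibitors Nfkbia, Nfkbiz and Tnfaip3, and Il1rn, which encodes the interleukin 1 receptor antagonist. RNA-seq was run on KLS cells (Lin-c-Kit+Sca-1+, the bone marrow fraction that holds stem cells and multipotent progenitors) and on granulocyte-macrophage progenitors (GMPs) of C57BL/6 mice. The cells of every library compared here carried a Cre transgene (Cre +/-), WT included. For libraries with a time label it was the interferon-inducible Mx1Cre, which is active beyond blood cells. Its inducer, in the paper polyinosinic:polycytidylic acid (pI:pC), is itself an interferon-inducing agent. The labels of the untimed libraries do not name the Cre line. WT stands for Daxx +/+ Cre +/-, Daxx-KO for Daxx F/F Cre +/-, DKO for Daxx F/F with Pu.1 F/F and Cre +/-, and, in a separate Pu.1 line, WT for Pu.1 +/+ Cre +/- and Pu.1-KO for Pu.1 F/F Cre +/-. Daxx is a chaperone of histone H3.3, and Pu.1, encoded by Spi1, is a transcription factor of myeloid cells. The labels of these libraries give no age or sex.

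Untimed libraries, whose labels give no time after induction, numbered 2 WT and 2 Daxx-KO in each cell type. Among the paper's sets of KLS cells and GMPs they match only that from transplanted animals, and were taken to be that set. In the paper its donors carried Mx1Cre and its recipients were lethally irradiated. At 3 weeks post induction (w.p.i.) there were 3 WT, 3 Daxx-KO and 2 DKO libraries in each cell type, and the Pu.1 line had 2 WT and 2 Pu.1-KO libraries in each, also at 3 w.p.i. Of 59 samples in the series, 32 libraries entered comparisons. KLS and GMP libraries at 3 w.p.i. in the Daxx line carry the same identifiers, so the cell types were not treated as independent of each other. Letters name libraries whose columns gave a group but no number.

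NF-kB is a family of transcription factors held in the cytoplasm by inhibitor proteins and released when cytokine or pathogen receptors are engaged. Its targets include cytokines and chemokines that spread the signal to other cells, and inhibitors that end the signal in the same cell. In bone marrow such signals are known to push progenitors towards myeloid output. Il1b, Tnf and Il6 encode secreted cytokines, Ccl3 and Ccl4 encode secreted chemokines, and Cxcl2 encodes a ligand of the neutrophil receptor Cxcr2. Nfkbia encodes the inhibitor IkBa, Tnfaip3 the ubiquitin-editing enzyme A20, and Nfkbiz the nuclear protein IkBz, which can also act as a co-activator.

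RefSeq promoter entries (build GRCm38.p6) were found for 8 of the 10 genes, all except Ccl4 and Nfkbiz. The 250 bases before each start were searched on both strands for the NF-kB consensus and for GAGGAA, the core preferred by Pu.1. These 8 genes have 11 entries. The NF-kB consensus was present in 4 of the 11, 1 in each of 4 genes, against 7.25% of all 32851 promoter entries, and GAGGAA in 2 of the 11, 1 in each of 2 genes, against 23.3%. A match describes these letters, not a bound site, and a missing match says only that the letters are not in this window. The first 4 sequences are shown because they carry the NF-kB consensus, the last 2 because they carry GAGGAA and belong to the genes with the largest called differences in KLS cells. Each is the 130 bases before the RefSeq start, read 5′ to 3′ on the gene's strand, with the matching letters of either strand in capitals. Their positions are chr5:30012984-30013113 for Il6 (plus strand), chr5:90903769-90903898 for Cxcl2 (plus strand), chr12:55492648-55492777 for Nfkbia (minus strand), chr10:19015411-19015540 for Tnfaip3 (minus strand), chr17:35202008-35202137 for Tnf (minus strand) and chr11:83649379-83649508 for Ccl3 (minus strand).
Il6: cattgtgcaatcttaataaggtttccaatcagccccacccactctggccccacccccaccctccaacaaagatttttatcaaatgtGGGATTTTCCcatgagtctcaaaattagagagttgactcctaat
Cxcl2: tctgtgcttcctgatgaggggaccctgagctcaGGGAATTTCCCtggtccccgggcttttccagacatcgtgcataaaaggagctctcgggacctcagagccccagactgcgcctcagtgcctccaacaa
Nfkbia: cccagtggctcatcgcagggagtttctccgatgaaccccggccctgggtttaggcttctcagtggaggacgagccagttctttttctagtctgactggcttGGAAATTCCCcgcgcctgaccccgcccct
Tnfaip3: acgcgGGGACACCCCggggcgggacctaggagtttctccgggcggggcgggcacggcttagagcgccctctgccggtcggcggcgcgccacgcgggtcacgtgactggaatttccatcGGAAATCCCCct
Tnf: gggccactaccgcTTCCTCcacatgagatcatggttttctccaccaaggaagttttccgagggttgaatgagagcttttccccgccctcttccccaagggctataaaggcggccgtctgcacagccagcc
Ccl3: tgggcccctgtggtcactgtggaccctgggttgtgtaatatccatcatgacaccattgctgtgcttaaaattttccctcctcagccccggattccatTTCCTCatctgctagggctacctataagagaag
The match lay 44 to 35 bases before the start in Il6 and 29 to 20 bases before it in Nfkbia. Cxcl2 held overlapping matches on both strands between 97 and 87 bases before the start. Tnfaip3 held one at 125 to 116, read on both strands, and one at 12 to 3. GAGGAA, printed as its reverse complement, lay at 117 to 112 in Tnf and at 33 to 28 in Ccl3.

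Recovered gene reads ranged from 3388906 to 22647397 per untimed library and from 10699070 to 19105576 per library at 3 w.p.i. No pair of libraries of a group agreed within sampling noise. Daxx was 31.8 ± 2.98 (SD, n = 2) normalized counts in untimed Daxx-KO KLS cells against 128 ± 13.5 (n = 2) in WT, and 85.7 ± 15.3 (n = 3) against 465 ± 41.4 (n = 3) at 3 w.p.i. Spi1 went against the label in both KLS libraries labelled DKO, at 2993 and 3330 against 1669 to 2320 in WT. In KLS libraries labelled Pu.1-KO it was above both WT libraries in Pu.1-KO a and below both in Pu.1-KO b, at 2920.5 and 1307 against 2764 and 2080. It was lower in both Pu.1-KO GMP libraries, at 2589 and 2707 against 3395 and 3934, and overlapped in GMPs labelled DKO, at 3846 and 2989 against 3348 to 4604. Gene-level values cannot show whether reads came from the deleted part. DKO and Pu.1-KO below stand for libraries so labelled. The KLS markers separated libraries of one cell type as well. Summed over 9 KLS and stem cell markers, untimed Daxx-KO KLS libraries held 8202 and 8647 against 36818 and 36926 in WT, and over 8 GMP markers 12216 and 15796 against 803 and 1455. Of those 9 markers 8 were called lower, and Ly6a was called higher. KLS libraries labelled DKO held 140932 and 174051 over 12 neutrophil markers, while the 3 WT libraries ranged from 562 to 29251 and the 3 Daxx-KO libraries from 1013 to 6586. In bulk RNA, fewer cells of a type and less RNA per cell cannot be told apart. Of the 12 neutrophil markers 4 were called higher in DKO than in WT and 8 higher than in Daxx-KO, with none lower. The part of these markers in the results below was not tested.

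**Figure D1:**
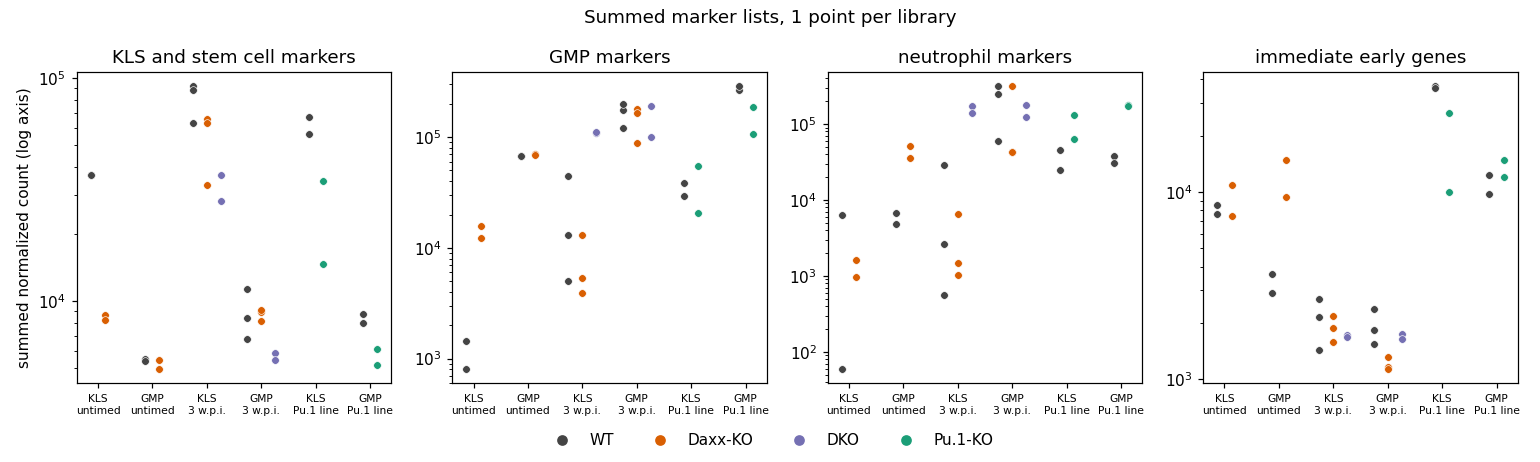
Summed normalized counts of 4 marker lists (log axis), 1 point per library, by table and genotype; the tables were normalized separately. Within the KLS table at 3 w.p.i., libraries labelled DKO lie above all WT and Daxx-KO libraries for neutrophil markers, and within the untimed KLS table Daxx-KO libraries lie below WT for KLS and stem cell markers.

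Few of the 10 genes passed the test, and no comparison called more than 2 of them. A gene was tested where its mean over the libraries of a table was 10 or more, and called at a limma adjusted p under 0.05 over all genes tested. In untimed KLS cells 0 of 6 tested members were called between Daxx-KO and WT, with 23.1% of all 13508 genes called (10.6% higher, 12.5% lower). In untimed GMPs 2 of 5 were called, Nfkbiz higher and Tnf lower, with 33% of 12744 genes called (16.6% higher, 16.5% lower). At 3 w.p.i. 0 of 8 members were called between Daxx-KO and WT KLS cells, against 0.257% of 15200 genes. In KLS cells labelled DKO against WT, 2 of 8 were called, Tnf higher and Ccl3 lower, against 17.6% of genes (9.24% higher, 8.4% lower). Against Daxx-KO, 1 of 8 was called, Ccl3 lower, against 15.4% of genes (8.17% higher, 7.22% lower). These contrasts share libraries. In GMPs at 3 w.p.i. 0 of 7 members were called in any contrast, against 0.0948% of 13714 genes for Daxx-KO and WT, 0.292% for DKO and WT, and 0.0583% for DKO and Daxx-KO. In the Pu.1 line 0 of 10 were called in KLS cells, against 0.81% of 23459 genes, and 1 of 9 in GMPs, Nfkbia higher, against 17.6% of 19337 genes (9.15% higher, 8.49% lower).

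The counts of 0 called members stood beside 4823 genes at an unadjusted p under 0.05 in untimed KLS cells, 1777 in KLS cells at 3 w.p.i., 433, 961 and 1104 in the 3 contrasts of GMPs, and 6071 in the Pu.1 line's KLS cells. edgeR called 1 member, Tnf, in untimed KLS cells and none in the other 5 of these comparisons, and DESeq2 called 1, Il6, between GMPs labelled DKO and Daxx-KO and none in the others. Which members went untested differed by table. Il1b, Il6, Cxcl2 and Il1rn were under the mean of 10 in both untimed tables, with Ccl4 added in GMPs, Il6 and Cxcl2 in KLS cells at 3 w.p.i., Il1b, Ccl4 and Cxcl2 in GMPs at 3 w.p.i., and Il6 in GMPs of the Pu.1 line.

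Libraries of the compared groups did not overlap for 1 of 6 tested members in untimed KLS cells, against 62.8% of all genes, and for 3 of 5 in untimed GMPs, against 67.2%. The count was 1 of 8 for Daxx-KO and WT KLS cells at 3 w.p.i., against 18.2%, 5 of 8 for DKO and WT, against 49.7%, and 2 of 8 for DKO and Daxx-KO, against 44.6%. In GMPs at 3 w.p.i. it was 0 of 7 against 8.1%, 1 of 7 against 18.6% and 2 of 7 against 20.7% in the same order. In the Pu.1 line it was 5 of 10 in KLS cells, against 65.6%, and 7 of 9 in GMPs, against 65%. The members' share lay above that of all genes in DKO against WT KLS cells, DKO against Daxx-KO GMPs and Pu.1-KO GMPs and below it in the others, and none of these differences in share was tested. Their median log2 fold change was -0.10 in untimed KLS cells, 0.32 in untimed GMPs and 0.32 for KLS cells without Daxx at 3 w.p.i., where the median of all genes was 0.03, -0.01 and -0.000521. It was -0.51 for DKO against WT and -0.66 for DKO against Daxx-KO in KLS cells, and -0.31 in KLS cells and 0.61 in GMPs of the Pu.1 line, where all genes had medians of 0.12 and -0.00229.

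**Figure D2:**
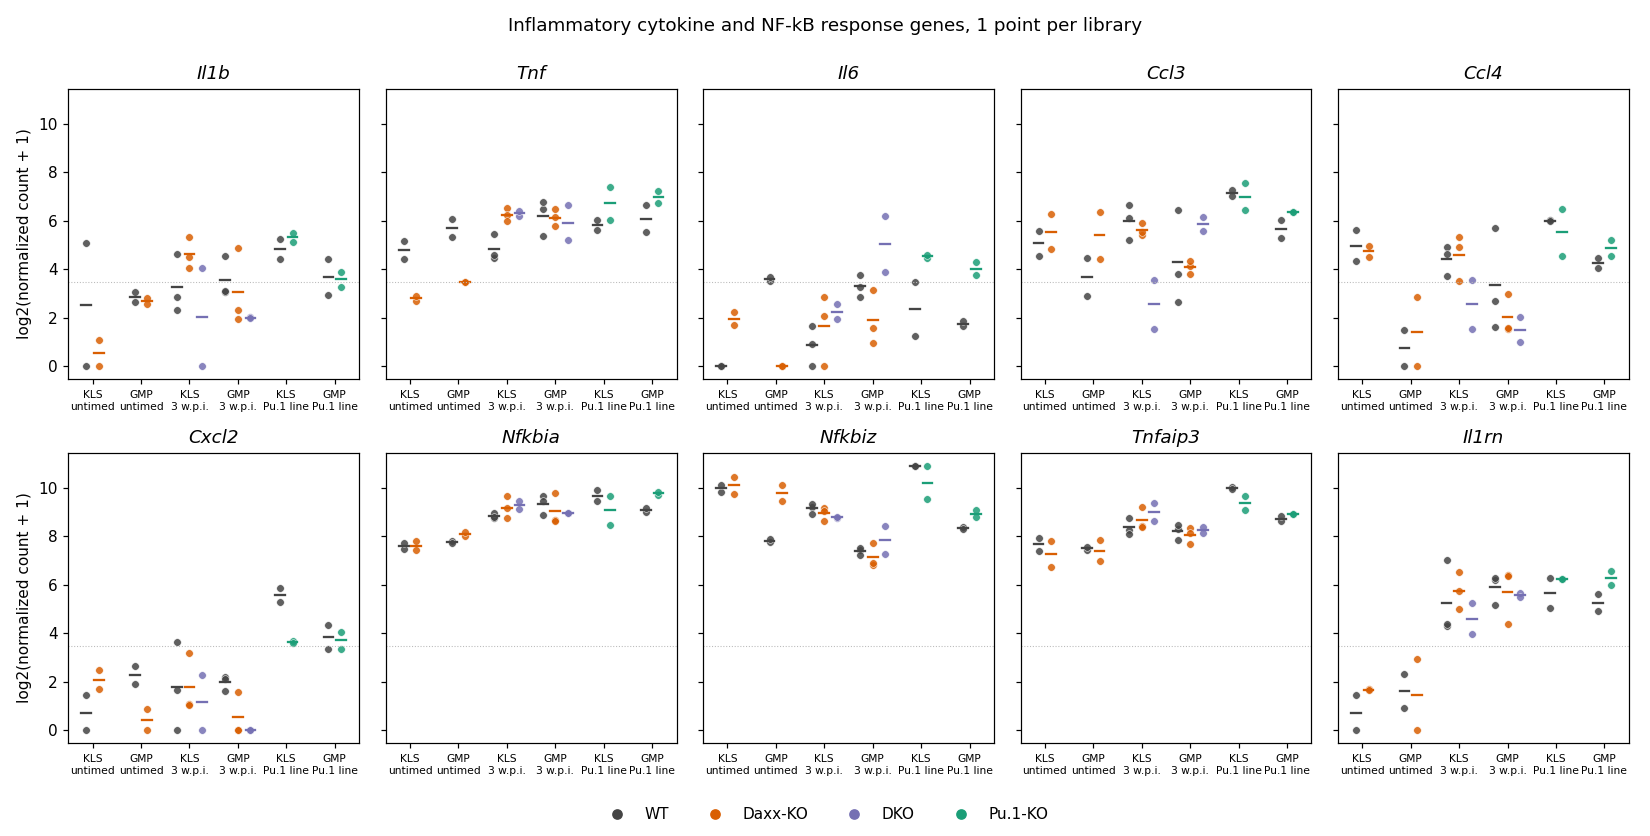
log2(normalized count + 1) of the 10 genes by table and genotype, 1 point per library with the mean as a bar; the dotted line marks a normalized count of 10, and levels of separately normalized tables are not comparable. Nfkbia, Nfkbiz and Tnfaip3 lie well above the line in every library, while Il6 and Cxcl2 lie near or under it in most tables.

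Per kilobase of exon, Nfkbia had the highest mean level of the 10 genes in WT cells of every table except that of untimed KLS cells, and Il1b, Il6, Cxcl2 and Il1rn had lower means than Tnf in every table. The order of the genes between them differed by table. In WT KLS cells at 3 w.p.i. Nfkbia had the highest normalized count per kilobase, 283 (range 269 to 303, n = 3), followed by Nfkbiz at 113 (96.5 to 127) and Ccl3 at 88.4 (47.0 to 128). The ranges of Nfkbiz and Ccl3 overlapped, so their order is not settled. Il6 was lowest at 0.418 (0 to 0.890). In WT GMPs at 3 w.p.i. Nfkbia stood at 404 (288 to 496) and Tnf at 48.2 (24.2 to 65.7), while Ccl3, Tnfaip3, Nfkbiz and Ccl4 lay between 29.7 and 45.2 with ranges that overlapped that of Tnf. Untimed KLS cells were the one table in which Nfkbiz, at 202 (182 to 221, n = 2), exceeded Nfkbia, at 119 (110 to 128), and their ranges did not overlap.

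Tnf, the gene of the cytokine that signals through the TNF receptors to NF-kB, was called lower in untimed Daxx-KO GMPs and higher in KLS cells labelled DKO. The gene lies on chr17:35199381-35202007, minus strand (GENCODE M21, GRCm38). In untimed GMPs it stood at 39.0 and 66.0 normalized counts in WT and at 10.1 and 10.2 in Daxx-KO. Both Daxx-KO libraries lay below both WT libraries, and Tnf fell by 2.21 ± 0.47 on the log2(normalized count + 1) scale (SE, limma adjusted p = 0.00622). The call was lost without WT 2 (adjusted p = 0.120). Wherever leaving out a library left 1 in its group, that library was assumed to vary like the other groups, here and in the other comparisons. In the same libraries the neutrophil markers summed to 35633 and 51331 in Daxx-KO against 4800 and 6718 in WT. Of 11 tested, 5 were called higher, among them the abundant S100a8 and S100a9, and 3 lower, among them Mmp8 (-2.88) and Cxcr2 (-1.23). All 7 tested mast cell and basophil markers were called lower. Monocyte and macrophage markers summed to 1811 and 1853 in Daxx-KO against 3537 and 3733 in WT, with 5 of 8 tested called lower and 3 higher. The part of these cell types in the fall of Tnf was not tested. In untimed KLS cells Tnf was 20.6 and 34.4 in WT and 5.5 and 6.4 in Daxx-KO, again without overlap. That difference of -2.00 ± 0.64 was not called by limma (adjusted p = 0.0552) and was called by edgeR (-2.19, adjusted p = 0.0482).

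At 3 w.p.i. Tnf in KLS cells was 42.1, 21.2 and 23.0 in WT, 91.6, 73.6 and 61.7 in Daxx-KO, and 72.8 and 83.8 in libraries labelled DKO. All 5 libraries with Daxx deleted lay above all 3 WT libraries. The difference from WT was 1.41 ± 0.40 in Daxx-KO (limma adjusted p = 0.252, not called) and 1.48 ± 0.44 in DKO (adjusted p = 0.0464). Daxx-KO and DKO differed by 0.06 ± 0.44 (adjusted p = 0.946). The DKO call was lost in 8 alternatives: without a filter on low genes, with edgeR, with only the 2 groups in the fit, with the replicate block, and without DKO 1, DKO 2, WT 2 or the unnumbered WT library (adjusted p = 0.0568 to 0.180). The fit with the replicate block also left out Daxx-KO 3 and the unnumbered WT library. The DKO libraries also held 2555 and 2711 over 8 T and NK cell markers, against 260 to 580 in WT and 298 to 712 in Daxx-KO. Most of that sum was Nkg7, at a mean of 2338 in DKO against 324 in WT, the 1 marker of 7 tested that was called higher, and Ncr1 was called lower in DKO than in Daxx-KO. In GMPs at 3 w.p.i. Tnf was 89.3, 39.7 and 107.7 in WT, 69.3, 88.4 and 53.4 in Daxx-KO and 35.5 and 98.6 in DKO, and the groups overlapped. In the Pu.1 line it was 47.4 and 63.3 in WT and 167.3 and 64.6 in Pu.1-KO KLS cells (0.91 ± 0.74, adjusted p = 0.385). In GMPs of that line it was 45.5 and 97.9 in WT and 146.3 and 104.5 in Pu.1-KO (0.88 ± 0.41, adjusted p = 0.114), without overlap in either cell type.

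Ccl3, which encodes macrophage inflammatory protein 1 alpha, fell in KLS cells labelled DKO. The gene is on chr11:83647844-83649355, minus strand, and its neighbour Ccl4 on chr11:83662584-83664683, plus strand. At 3 w.p.i. Ccl3 was 98.3, 68.9 and 36.0 in WT KLS cells, 41.9, 58.3 and 45.0 in Daxx-KO, and 1.9 and 10.6 in DKO, the last from 2 and 11 reads. Both DKO libraries lay below the other 6. Ccl3 fell by 3.45 ± 0.69 against WT (limma adjusted p = 0.0095) and fell by 3.07 ± 0.69 against Daxx-KO (adjusted p = 0.0157), while Daxx-KO and WT differed by -0.38 ± 0.62 (adjusted p = 0.848). Both calls rested on DKO 1: without it the differences were -2.45 (adjusted p = 0.0858) and -2.08 (adjusted p = 0.131). With the replicate block, a fit that also left out Daxx-KO 3 and the unnumbered WT library, the difference from Daxx-KO was -3.12 (limma adjusted p = 0.0511). The GMP markers moved the other way in these libraries, with sums of 109304 and 112422 in DKO against 4976 to 44569 in WT and 3889 to 13009 in Daxx-KO.

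In GMPs at 3 w.p.i. the 2 DKO libraries had Ccl3 at 70.0 and 46.4, the Daxx-KO libraries at 16.6, 19.0 and 12.8, and the WT libraries at 5.2, 85.6 and 13.1. DKO lay above Daxx-KO without overlap, and WT spanned both. The difference between DKO and Daxx-KO was 1.77 ± 0.93 (limma adjusted p = 0.745). Untimed GMPs had Ccl3 at 6.5 and 20.8 in WT and at 20.3 and 81.2 in Daxx-KO (1.71 ± 0.73, adjusted p = 0.108). This difference was called by edgeR (1.97, adjusted p = 0.0443) and without Daxx-KO 1 (2.68, adjusted p = 0.00527). In untimed KLS cells Ccl3 was 22.4 and 46.5 in WT and 27.3 and 76.4 in Daxx-KO, with overlap. In the Pu.1 line it was 151.8 and 126.6 in WT and 188.3 and 84.5 in Pu.1-KO KLS cells, and 38.1 and 64.0 against 80.8 and 81.3 in GMPs (0.70 ± 0.47, adjusted p = 0.278).

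Ccl4, which encodes macrophage inflammatory protein 1 beta, was also lowest in DKO KLS cells, at 1.9 and 10.6, from 2 and 11 reads as for Ccl3. WT libraries stood at 29.2, 23.8 and 12.01 and Daxx-KO libraries at 29.4, 38.6 and 10.5, the lowest of which overlapped DKO. The differences of -1.88 ± 0.87 from WT (limma adjusted p = 0.167) and -2.04 ± 0.87 from Daxx-KO (adjusted p = 0.152) were not called. In GMPs Ccl4 was scarce: at 3 w.p.i. 7 of 8 libraries lay between 1.0 and 6.8 and 1 WT library at 51.2, the same library that was highest for Ccl3. Ccl4 in untimed KLS cells was 18.9 and 48.2 in WT and 21.9 and 30.0 in Daxx-KO. In the Pu.1 line it was 63.7 and 62.4 in WT and 88.9 and 22.4 in Pu.1-KO KLS cells, and 21.2 and 15.7 against 36.2 and 22.3 in GMPs. None of these was called.

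Il6 and Cxcl2 were near the limit of detection in many libraries and Il1b was low in many, and none was called by limma with all libraries and the filter on low genes. Il6 lies on chr5:30013114-30019981 and Cxcl2 on chr5:90903871-90905938, both on the plus strand, and Il1b on chr2:129364570-129371139, minus strand, where the antisense gene Il1bos overlaps it, so that without known use of strand its reads are uncertain. In untimed GMPs Il6 was 10.4 and 11.7 in WT, from 21 reads in all, and 0 in both Daxx-KO libraries. Set against a floor of 3 reads per library, a mean of 3.65 normalized counts, it was at least 3.03-fold lower in Daxx-KO, for counting error only, and under the mean of 10 needed for a test. Without that filter it was called (adjusted p = 0.00833). In GMPs at 3 w.p.i. Il6 was 73.0 and 13.8 in DKO, 6.2, 12.4 and 8.7 in WT, while Daxx-KO libraries held 7.8, 1.0 and 2.0. Both DKO libraries were above all others, with most of the difference in 1 of them. The difference from Daxx-KO was 3.16 ± 0.93 (limma adjusted p = 0.313, and 0.0313 with DESeq2) and from WT 1.76 ± 0.93 (adjusted p = 0.841).

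Il6 was also higher in both libraries labelled Pu.1-KO in each cell type of the Pu.1 line, whose KLS and GMP libraries share identifiers. It was 1.4 and 10.1 in WT and 21.1 and 23.0 in Pu.1-KO KLS cells (2.17 ± 1.53, limma adjusted p = 0.324), and 2.1 and 2.6 against 12.3 and 18.8 in GMPs, where it was not tested. In KLS cells at 3 w.p.i. no library exceeded 6.3, and in untimed KLS cells it was 0 in both WT and 2.2 and 3.6 in Daxx-KO libraries, at a depth where 3 reads amount to a mean of 5.16 in WT. Cxcl2 was 56.9 and 38.0 in WT and 11.7 and 10.9 in Pu.1-KO KLS cells of the Pu.1 line, without overlap (-1.95 ± 1.08, adjusted p = 0.227). Its GMPs overlapped, with 19.0 and 9.1 in WT and 9.2 and 15.4 in Pu.1-KO. In the other tables Cxcl2 reached at most 11.5.

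Il1b at 3 w.p.i. was 23.8, 6.2 and 4.0 in WT KLS cells, 21.5, 39.5 and 15.7 in Daxx-KO, and 0 and 15.4 in DKO. DKO lay below Daxx-KO, narrowly, and overlapped WT. The difference between DKO and Daxx-KO was -2.61 ± 1.23 (limma adjusted p = 0.192). Without DKO 2 it was called (adjusted p = 0.0363), but the lone DKO library left held 0 reads and the spread came from the other groups, so no fold is given. In untimed KLS cells WT 1 held 32.7 and the other 3 libraries 0 to 1.1. Il1b was called there without WT 2, with WT 1 as the lone WT library. WT 1 also held 6296 over the neutrophil markers, against 59 in WT 2. In GMPs at 3 w.p.i. Il1b was 7.3, 22.1 and 7.6 in WT, 28.3, 2.9 and 4.0 in Daxx-KO, and 3.04 and 2.96 in DKO, from 3 reads in each DKO library. DKO lay below WT and within the range of Daxx-KO. Il1b ranged from 4.9 to 7.2 in untimed GMPs, and in the Pu.1 line from 20.3 to 44.2 in KLS cells and from 6.5 to 20.1 in GMPs, with overlap between groups in these 3 tables.

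Il1rn, whose protein occupies the interleukin 1 receptor without signalling, lies on chr2:24336853-24351494, plus strand. It was nearly absent from untimed cells, at 0 to 2.2 in KLS libraries and 0 to 6.5 in GMPs. In KLS cells at 3 w.p.i. it was 128.6, 18.5 and 20.01 in WT, 30.5, 89.7 and 52.3 in Daxx-KO and 14.4 and 36.6 in DKO. The highest WT library, WT 1, set the WT mean. GMPs at 3 w.p.i. held 72.7, 34.4 and 77.3 in WT, 83.0, 79.8 and 19.8 in Daxx-KO and 48.7 and 43.4 in DKO, with overlap throughout. In GMPs of the Pu.1 line Il1rn was 47.6 and 28.7 in WT and 62.4 and 94.2 in Pu.1-KO (1.03 ± 0.51, limma adjusted p = 0.132), and in KLS cells 77.3 and 32.1 against 74.9 and 73.6.

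Nfkbiz gave the clearest called rise of the set. The gene lies on chr16:55811375-55838899, minus strand. In untimed GMPs it was 215.9 and 234.0 in WT and 689.4 and 1106.3 in Daxx-KO. Both Daxx-KO libraries were well above both WT libraries, and Nfkbiz rose by 1.95 ± 0.20 (limma adjusted p = 0.000125), a call that every alternative kept. In these libraries 10 of 11 tested immediate early genes, which like Nfkbiz respond quickly to stimulation, were called higher, and the list summed to 9393 and 14925 in Daxx-KO against 2881 and 3659 in WT. Untimed KLS cells showed no such separation: Nfkbiz was 913.5 and 1109.3 in WT and 864.2 and 1397.9 in Daxx-KO (0.13 ± 0.21, adjusted p = 0.713). Whether the cell types differed was not tested.

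At 3 w.p.i. Nfkbiz in KLS cells was 583.6, 638.2 and 484.2 in WT, 570.2, 391.2 and 525.2 in Daxx-KO and 430.2 and 443.3 in DKO. DKO lay below WT without overlap, by -0.37 ± 0.21 (limma adjusted p = 0.247). In GMPs it was 172.4, 182.7 and 148.0 in WT, 110.4, 210.0 and 118.6 in Daxx-KO and 338.9 and 152.9 in DKO, with overlap. In KLS cells of the Pu.1 line it was 1905.7 and 1911.3 in WT and 1883.1 and 731.6 in libraries labelled Pu.1-KO (-0.70 ± 0.61, adjusted p = 0.414). The lower Pu.1-KO library, b, stood apart in its markers too, with 14608 over the KLS and stem cell markers against 34649 to 66762 in the other 3, and with 10029 over the immediate early genes against 26524 to 36890. Without Pu.1-KO a, which leaves b as the lone Pu.1-KO library, the difference was -1.38 and called (adjusted p = 0.0260), as were 6905 genes in all against 190 with both. In GMPs of that line Nfkbiz was 331.2 and 313.4 in WT and 440.4 and 537.7 in Pu.1-KO, without overlap. The difference of 0.59 ± 0.27 missed the threshold (adjusted p = 0.102) and was called after TMM scaling (0.66, adjusted p = 0.0416), with edgeR (0.69, adjusted p = 0.0400) and without Pu.1-KO a (0.74, adjusted p = 0.0111).

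Nfkbia, a direct feedback target of NF-kB, was called in 1 comparison. It lies on chr12:55489410-55492647, minus strand. In GMPs of the Pu.1 line it was 509.0 and 574.5 in WT and 830.1 and 905.8 in Pu.1-KO. Both Pu.1-KO libraries were above both WT libraries, and Nfkbia rose by 0.68 ± 0.25 (limma adjusted p = 0.0388). The call was lost without WT a (adjusted p = 0.483), without WT b (0.601) and with no filter on low genes (0.0578). Neutrophil markers moved with it: 11 of 12 were called higher, and their sum was 174346 and 177864 in Pu.1-KO against 30304 and 38205 in WT.

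In KLS cells of the Pu.1 line Nfkbia was 948.8 and 688.6 in WT and 801.2 and 352.7 in Pu.1-KO, with overlap. Untimed GMPs had 221.2 and 209.6 in WT and 255.5 and 283.9 in Daxx-KO, which did not overlap (0.32 ± 0.15, limma adjusted p = 0.132). Untimed KLS cells had 177.2 and 206.7 against 170.7 and 222.1. At 3 w.p.i. KLS cells held 432.3, 488.1 and 447.2 in WT, 564.6, 801.2 and 427.9 in Daxx-KO and 691.8 and 551.3 in DKO. DKO was above WT without overlap (0.44 ± 0.25, adjusted p = 0.254), while Daxx-KO spanned both. GMPs at 3 w.p.i. ranged from 396.3 to 870.6 with overlap between all groups, and the Daxx-KO library at 870.6 was also the one with the highest neutrophil sum of its group, 315967 against 42343 and 43026.

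Tnfaip3, on chr10:19000910-19015657, minus strand, was not called in any comparison. In KLS cells at 3 w.p.i. it was 428.0, 302.8 and 269.1 in WT, 336.0, 583.2 and 335.8 in Daxx-KO and 653.4 and 399.0 in DKO, with overlap. In untimed cells it was 166.9 and 242.9 in WT and 105.0 and 221.2 in Daxx-KO KLS cells, and 173.0 and 186.1 against 123.7 and 226.4 in GMPs. In KLS cells of the Pu.1 line it was 1043.7 and 971.3 in WT and 795.3 and 541.5 in Pu.1-KO, without overlap (-0.62 ± 0.58, limma adjusted p = 0.449). In GMPs of that line it was 391.5 and 447.9 against 478.2 and 479.5 (0.19 ± 0.26, adjusted p = 0.611), and in GMPs at 3 w.p.i. it ranged from 201.6 to 351.5 over all 8 libraries.

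**Figure D3:**
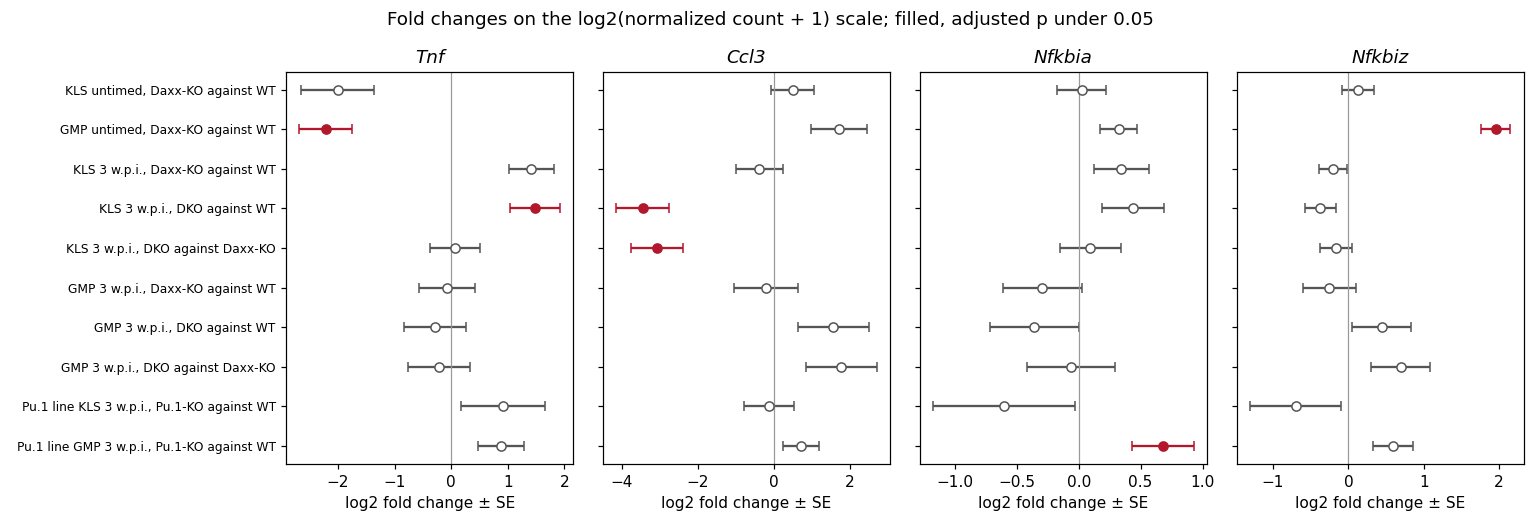
log2 fold change ± SE of Tnf, Ccl3, Nfkbia and Nfkbiz in the 10 comparisons, on the log2(normalized count + 1) scale, with filled points at a limma adjusted p under 0.05. Tnf was called lower in untimed GMPs and higher in KLS cells labelled DKO, Ccl3 lower in both KLS contrasts of DKO, Nfkbia higher in Pu.1-KO GMPs and Nfkbiz higher in untimed Daxx-KO GMPs.

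A list of 83 other genes of the pathway was described in the same way. Among them 16 of 66 tested in untimed KLS cells were called higher and 13 lower in Daxx-KO, where 10.6% of all genes were called higher and 12.5% lower. In these libraries 7 of 8 GMP markers were called higher and 8 of 9 KLS and stem cell markers lower, with the sums given above. The remaining KLS and stem cell marker, Ly6a, was called higher, by 1.94 ± 0.16 (limma adjusted p = 7.87e-05). Receptors and adaptors moved in both directions, 7 higher and 6 lower of 18. Cxcr2, the receptor of Cxcl2 and also on the neutrophil list, was called higher (limma adjusted p = 0.0348). It stood at 338 ± 48.1 normalized counts in Daxx-KO (SD, n = 2) against 32.7 ± 46.2 in WT (n = 2). The WT SD exceeds the WT mean, so no fold is given. The bacterial sensor Tlr2 rose by 1.82 ± 0.30 (limma adjusted p = 0.00308). The decoy receptor Il1r2 fell by 2.70 ± 0.68 and Il6st, the shared signalling chain of interleukin 6 receptors, by 1.15 ± 0.15 (limma adjusted p = 0.0227 and 0.000804). The NF-kB subunits Nfkb1 and Rel rose by 0.90 ± 0.12 and 0.71 ± 0.19. Of the other cytokines Ccl9 rose by 3.68 ± 0.15 and Il18 fell by 1.88 ± 0.27. Tnfsf9 was called lower, at 0.758 ± 1.07 normalized counts in Daxx-KO (SD, n = 2) against 27.6 ± 21.9 in WT (n = 2). Its Daxx-KO SD exceeds the mean, so no fold is given.

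In untimed GMPs 18 of 63 tested were called higher and 11 lower in Daxx-KO, against 16.6% and 16.5% of all genes. Differences between these shares were not tested here or in the other comparisons. The neutrophil, mast cell, monocyte and immediate early genes that moved in these libraries are given with Tnf and Nfkbiz. All 4 called genes among 12 tested inhibitors and feedback genes were higher, among them Zfp36 and Zc3h12a, whose proteins destabilise cytokine mRNAs, at 1.82 ± 0.22 and 0.97 ± 0.22 (limma adjusted p = 0.000335 and 0.00914). The lipopolysaccharide receptor gene Tlr4 rose by 1.22 ± 0.11 and the signalling kinase gene Irak2 by 0.97 ± 0.15. Il6st fell by 4.12 ± 0.46 and the cytokine gene Csf1 by 2.47 ± 0.22. The chemokine receptor gene Ccr1 was called lower, at 1.43 ± 2.02 normalized counts in Daxx-KO (SD, n = 2) against 66.9 ± 2.57 in WT (n = 2). Its Daxx-KO SD exceeds the mean, so no fold is given. Ptgs2, which encodes cyclooxygenase 2, rose by 2.21 ± 0.67 and Plaur fell by 2.49 ± 0.31.

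At 3 w.p.i. 0 of 70 tested pathway genes passed the test between Daxx-KO and WT KLS cells, where only 0.257% of all genes did. In GMPs it was 0 of 67 in each contrast. Of all genes there 0.0948% passed for Daxx-KO and WT, 0.292% for DKO and WT, and 0.0583% for DKO and Daxx-KO. Libraries labelled DKO differed in KLS cells, where 7 of 70 were called higher and 13 lower against WT (9.24% and 8.4% of all genes), and 7 higher and 11 lower against Daxx-KO (8.17% and 7.22%), contrasts that share the DKO libraries. Besides the neutrophil markers, whose sums were 140932 and 174051 in DKO, 4 of 8 GMP markers were called higher against WT and 6 of 8 against Daxx-KO. Rel, an NF-kB subunit, fell from 867 ± 45.3 normalized counts in WT (SD, n = 3) to 253 ± 70.3 in DKO (n = 2, limma adjusted p = 0.000935), and fell by 2.08 ± 0.22 on the log2 scale against Daxx-KO (adjusted p = 0.000394). Nfkbie, another IkB inhibitor, fell by 1.26 ± 0.20 and 1.55 ± 0.20, and the adhesion gene Icam1 fell by 1.39 ± 0.27 against WT and fell by 1.73 ± 0.27 against Daxx-KO. Of the chemokine genes Ccl9 fell by 2.83 ± 0.47 and 3.10 ± 0.47. Tnfrsf1b, which encodes the second receptor of Tnf, rose by 1.83 ± 0.15 and 2.03 ± 0.15, and Il1r2 rose by 3.22 ± 0.56 against WT.

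In the Pu.1 line 1 of 73 tested pathway genes was called in KLS cells, against 0.81% of all genes. It was Ccl9, which fell by 2.37 ± 0.58 (limma adjusted p = 0.0202). In GMPs 11 of 73 were called higher and 4 lower, against 9.15% and 8.49% of all genes. In these libraries 11 of 12 neutrophil markers were called higher, and of 8 GMP markers 4 were called lower and 1 higher. The cytokine signalling suppressor Socs3 rose by 3.27 ± 0.50, Traf1 by 2.95 ± 0.64, Il1r2 by 2.38 ± 0.29, Cd40 by 2.35 ± 0.58 and the cytokine gene Osm by 1.87 ± 0.32. Among those that fell were Ccl9, by 0.90 ± 0.24, and the IkB inhibitor gene Nfkbib, by 0.72 ± 0.27. Myd88, Ccl2, Ccl6 and Cxcl10 were listed at 0 in every library compared and support no statement about these genes.

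**Figure D4:**
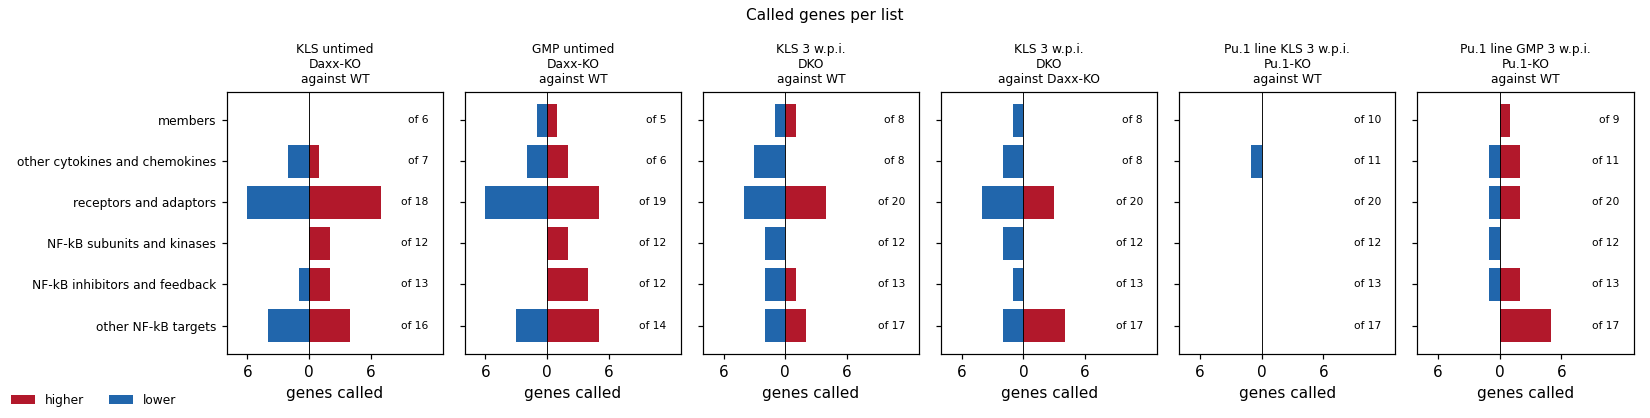
Genes called higher (right, red) and lower (left, blue) per list in the 6 comparisons with any call among these lists, with the number tested beside each bar. In untimed GMPs 4 of 12 tested inhibitor and feedback genes and 2 of 12 NF-kB subunits and kinases were called, all higher. Of all genes there 16.6% were called higher and 16.5% lower, and differences from these shares were not tested. Receptors and adaptors were called in both directions in every panel except that of Pu.1-KO KLS cells, where none was called.

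Across all 36 libraries used, after centring each gene on the mean of its table, the genes whose log2 values ran most closely with each member were found among 11643 genes. These are correlations over libraries that share genotype and table and differ in depth, given as a description. Tnf ran most closely with Itgal (r = 0.75), Cd52 (0.75) and Ikzf3 (0.73), and Ccl3 with Spata6 (0.74), Trim30b (0.74) and Dnajb13 (0.72). Nfkbia ran with Ppm1m (0.85), Lasp1 (0.83) and Ppp1r18 (0.83), Nfkbiz with Itih5 (0.88), Slain1 (0.84) and Erg (0.83), and Tnfaip3 with Rad21 (0.68), Sik1 (0.67) and Cwc25 (0.67). None of these nearest genes was another member. Tnf and Nfkbiz ran against each other (r = -0.41), as did Tnf and Ccl3 (r = -0.34), while Ccl3 and Nfkbiz ran together (r = 0.52). Tnfaip3 had r = 0.50 with Nfkbia, 0.32 with Tnf, 0.21 with Nfkbiz and 0.07 with Ccl3. Nfkbia had r = 0.39 with Nfkbiz, 0.23 with Tnf and -0.04 with Ccl3.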

How the data were processed

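RNA was sequenced by the authors from sorted KLS cells and GMPs. The submitters' processing notes name CASAVA 1.8.4, cutadapt 1.13, STAR 2.5.3, DESeq2 1.16.1 and mm10, and the study used GENCODE annotation. The counter and its use of strand are not given in the sources used here. The deposited gene tables hold a normalized signal, gene-level counts divided by 1 size factor per library, and the authors normalized each table separately, so tests stayed within a table. In each library used, 100% of values came out as whole reads within 0.01. The tables hold 111 columns of values per sample, of which 36 were used, since the names of the other 75 (repeat tables included) were not matched to 1 sample or were not needed. GMP columns at 3 w.p.i. took their genotype from the identifier they share with a KLS title, and 1 WT identifier that no title names was assigned by the control ending of its KLS repeat column. The labels do not say that libraries of a group came from separate animals, so p-values measure the spread between these samples.

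Tests were run in R 4.3.3 on log2(normalized count + 1), with limma 3.58.1 and its trend of variance on mean, over all genes with a mean of 10 or more, with all libraries of a table in 1 fit and Benjamini-Hochberg adjustment over those genes. Fold changes on this scale understate changes of low genes. Alternatives were a pseudocount of 4, no filter, TMM scaling, edgeR 4.0.16 and DESeq2 1.42.0 on recovered reads, only the groups compared, a replicate block, and each library left out. In KLS cells at 3 w.p.i. the block fits kept only libraries numbered 1 or 2, so Daxx-KO 3 and the unnumbered WT library were left out too. The fits were also run on counts simulated for untimed GMPs and for KLS cells at 3 w.p.i., with a single spread and with changes in well-counted genes only. That setting cannot show how the fits treat low members or libraries that vary more. All 10 members were named in every comparison, and of other pathway lists up to 2 called genes with the largest rise and 2 with the largest fall per comparison. For each member with a mean of 10 or more in every table, the 3 genes with the highest correlation were named. Members and lists were chosen with earlier results of these data known. Gene positions come from GENCODE M21 (GRCm38). Untimed libraries match the kit that the methods give for transplanted animals, while the labels give the same kit for all, so the kit alone does not settle their origin. Among the paper's sets of KLS cells and GMPs, they match only that from transplanted animals. Spi1 was 1124 in untimed Daxx-KO KLS cells against 419 in WT. The paper reports it as raised in KLS cells only after transplantation, but also names it among myeloid genes that rose with time.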

Additional observations from a re-analysis of the deposited data

Results flagged for a closer look

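For 4 pairs of differences, every library of one group moved one way in one setting and the other way in another. None of these differences between settings was tested. Among all genes, groups did not overlap for 62.8% in untimed KLS cells and 18.2% in Daxx-KO against WT KLS cells at 3 w.p.i. The share was 44.6% in KLS cells and 20.7% in GMPs for DKO against Daxx-KO, and 65.6% and 65% in the Pu.1 line. How many of all genes turned in this way was not counted. Tnf differed by -2.00 between Daxx-KO and WT in untimed KLS cells and by 1.41 in those at 3 w.p.i., and the groups did not overlap in either table, although the tables were normalized separately. The untimed cells were taken to be from transplanted animals, and those at 3 w.p.i. were not. Ccl3 differed by -3.07 between DKO and Daxx-KO in KLS cells and by 1.77 in GMPs at 3 w.p.i., where the libraries of both cell types carry the same identifiers. Nfkbiz differed by -0.70 in KLS cells and by 0.59 in GMPs between Pu.1-KO and WT. In those KLS cells Pu.1-KO a lay only just below WT, at 1883.1 against 1905.7 and 1911.3, and Pu.1-KO b stood at 731.6. Tnfaip3 differed by -0.62 in KLS cells and by 0.19 in GMPs of the same line, whose KLS and GMP libraries also share identifiers. Of these 8 differences, only that of Ccl3 in KLS cells passed the threshold of limma.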

How the results depend on the processing

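Of the members' fold changes, all 75 kept their direction and call with a pseudocount of 4, 73 of 75 without the filter on low genes, 74 with TMM scaling, 69 with edgeR and 73 with DESeq2. The sign turned for Tnfaip3 in untimed GMPs, to 0.054 with edgeR and 0.0062 with DESeq2, and for Ccl3 in Pu.1-KO KLS cells, to 0.11 with edgeR. No member whose sign turned under any alternative had been called. Without the filter 1751 genes against 3118 were called in untimed KLS cells, and with edgeR 1 member against 0, Tnf. In Daxx-KO against WT at 3 w.p.i., DESeq2 called 342 genes in KLS cells, where 39 were reported, and 80 in GMPs, where 13 were. In DKO against WT, 1 member against 2 was called in KLS cells without the filter, with edgeR and with only the groups compared, and in GMPs 263 genes against 40 with DESeq2 and 5 with only the groups compared. In DKO against Daxx-KO GMPs, where 8 genes were called, all of them higher, 16 genes were called with a pseudocount of 4, 13 without the filter, 18 with TMM scaling, 20 with edgeR, 0 with only the groups compared and 280 with DESeq2, which also called 1 member, Il6. In Pu.1-KO KLS cells, 605 genes against 190 were called with TMM scaling, 1919 with edgeR and 1357 with DESeq2, and in Pu.1-KO GMPs 0 members against 1 without the filter and 2 with TMM scaling and with edgeR. The median log2 fold change of all genes in Pu.1-KO KLS cells was 0.12, and 0.18 with TMM scaling, 0.26 with edgeR and 0.15 with DESeq2. In Pu.1-KO GMPs it was 0.11 with edgeR and -0.0023 as reported. The share of called genes that were higher was 57.9% in Pu.1-KO KLS cells, against 73.7% with TMM scaling, 87.3% with edgeR and 70.3% with DESeq2. It was 71.8% at 3 w.p.i. for KLS cells without Daxx, against 58.8% with DESeq2, and 100% in DKO against Daxx-KO GMPs, against 77.8% with TMM scaling, 87.5% with a pseudocount of 4, 84.6% without the filter and 77.1% with DESeq2. The cause was not tested for any of these shifts.

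Replicate numbers did not pair the samples: the correlations of same-numbered deviations over 2 pairs each were -0.00950 and -0.111 in untimed KLS cells and GMPs, and 0.0682, -0.0767 and -0.184 in KLS cells at 3 w.p.i. for WT with Daxx-KO, WT with DKO and Daxx-KO with DKO. With the replicate block, 82 genes against 39 were called in Daxx-KO against WT KLS cells at 3 w.p.i., 1 member in DKO against WT, and 0 members and 1302 genes against 2340 in DKO against Daxx-KO, where the log2 fold change of Tnf was -0.071 and that of Nfkbia -0.12, and Ccl3 was called in untimed GMPs. With the pairs of untimed GMPs crossed, an alternative chosen after seeing the data, 3 members and 4921 genes were called. No block was fitted where the columns carry no numbers, which holds for the Pu.1 line and for GMPs at 3 w.p.i.

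With each library left out in turn, calls ranged as follows, a library left alone in its group being assumed to vary like the others. In untimed Daxx-KO against WT KLS cells 419 (without Daxx-KO 2) to 3290 genes (without WT 1) were called and 0 to 1 members, and the log2 fold change ranged for Ccl3 from -0.23 to 1.22, Ccl4 from -0.89 to 0.42, Nfkbia from -0.16 to 0.21, Nfkbiz from -0.22 to 0.47 and Tnfaip3 from -0.93 to 0.14. In untimed Daxx-KO against WT GMPs 2162 (without WT 2) to 4448 genes (without Daxx-KO 1) were called and 1 to 3 members, and the log2 fold change ranged for Tnfaip3 from -0.53 to 0.33. In Daxx-KO against WT KLS cells at 3 w.p.i. 8 (without Daxx-KO 1) to 137 genes (without the unnumbered WT) were called, and the log2 fold change ranged for Ccl4 from -0.19 to 0.70. In DKO against WT KLS cells 574 (without DKO 1) to 2975 genes (without the unnumbered WT) were called and 0 to 2 members, and the log2 fold change ranged for Il1b from -3.27 to 0.77 and Il1rn from -1.29 to 0.25. In DKO against Daxx-KO KLS cells 672 (without DKO 1) to 2481 genes (without Daxx-KO 2) were called and 0 to 2 members, and the log2 fold change ranged for Tnf from -0.071 to 0.21, Nfkbia from -0.12 to 0.33 and Tnfaip3 from -0.017 to 0.69. In Daxx-KO against WT GMPs at 3 w.p.i. 4 (without WT c) to 11 genes (without WT b) were called, and the log2 fold change ranged for Tnf from -0.50 to 0.21, Ccl3 from -1.04 to 0.86, Tnfaip3 from -0.33 to 0.031 and Il1rn from -0.55 to 0.48. In DKO against WT GMPs 2 (without DKO a) to 90 genes (without DKO b) were called, and the log2 fold change ranged for Tnf from -1.01 to 0.44, Nfkbiz from -0.13 to 1.02 and Tnfaip3 from -0.14 to 0.16. In DKO against Daxx-KO GMPs 0 (without DKO a) to 71 genes (without DKO b) were called, and the log2 fold change ranged for Tnf from -0.94 to 0.51, Nfkbia from -0.25 to 0.31 and Il1rn from -0.81 to 0.20. In Pu.1-KO against WT KLS cells 13 (without WT a) to 6905 genes (without Pu.1-KO a) were called and 0 to 1 members, and the log2 fold change ranged for Ccl3 from -0.71 to 0.44, Ccl4 from -1.45 to 0.49 and Il1rn from -0.057 to 1.19. In Pu.1-KO against WT GMPs 151 (without WT b) to 8163 genes (without Pu.1-KO b) were called and 0 to 2 members, and the log2 fold change ranged for Il1b from -0.82 to 0.24 and Cxcl2 from -0.63 to 0.35.

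Cxcl2 had at most 3 reads in most libraries and Il6 in many, so small differences of both genes were not detectable at this depth. The comparisons of other genotypes at 24 w.p.i. and of MPP3, MPP4 and LTHSC libraries were not run.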

Other observations

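WT cells at 24 w.p.i. were held in 2 libraries per cell type, and no other genotype of that time was analysed here. Nfkbia was 1004.0 and 1062.5 normalized counts in KLS cells and 1015.3 and 605.6 in GMPs, Nfkbiz 1192.6 and 756.9 against 488.0 and 649.8, and Tnfaip3 426.1 and 435.9 against 562.2 and 537.5. Of the cytokine genes, Ccl3 was 130.6 and 79.6 in KLS cells and 51.3 and 20.4 in GMPs, and Tnf 38.3 and 75.6 against 41.5 and 52.7. Per kilobase of exon Nfkbia was highest in both cell types, at 642 in KLS cells and 503 in GMPs. Cxcl2 was listed at 0 in all 4 libraries. The tables of the cell types were normalized separately, so these levels were not compared by a test.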
